A study of Mus musculus with 12 samples.

Results

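COPI and COPII secretory transport genes are the 35 mouse genes whose products build, start, load or retrieve the coated vesicles that move cargo between the endoplasmic reticulum (ER) and the Golgi apparatus. They were chosen by name from a list of coat subunits, their GTPases and regulators, and the cargo receptors that ride in the vesicles, and matched by Ensembl identifier to the 55487 genes of the count table. All 35 were found, and all 35 passed the filter on low counts, so that each is among the 11314 protein-coding genes tested. RNA was measured by strand-specific mRNA sequencing in mouse bone marrow-derived mesenchymal stromal cells (MSCs), which the study pulsed with A1, a cholic acid linked to a nuclear localization signal, to make them present a captured antigen. The 12 samples form 3 groups of 4. Control MSCs were untreated, A1-treated MSCs were exposed to A1 at 50 μM for 6 h, and for the A1 + OVA group albumin from egg white (OVA) was added at 1 mg/ml over the same 6 h. All 3 groups were wild-type primary cells of the C57BL/6 strain in the same medium with serum, expanded in culture before use. No sample received OVA alone, so OVA can be compared only in the presence of A1, and the controls received no vehicle according to the labels. No treatment time is given for the controls, so a matching change of medium for them is not known.

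Proteins leave the ER in COPII vesicles. The guanine nucleotide exchange factor Preb (Sec12) loads the GTPase Sar1 at exit sites organized by Sec16, Sar1 recruits the inner coat of Sec23 and Sec24, in which Sec24 binds cargo, and the outer coat of Sec13 and Sec31 then bends the membrane. COPI vesicles, made from a heptameric coatomer and an Arf GTPase, return escaped ER residents and cargo receptors from the Golgi, with KDEL receptors binding the retrieval signal of ER chaperones and the p24 proteins of the Tmed family serving as cargo adaptors. In professional secretory cells and under the unfolded protein response (UPR), genes of this pathway are known targets of XBP1, ATF6 and the CREB3 family.

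Each sample had between 13702348 and 16881995 counts, and each member had at least 606 counts in every sample. Levels are given as CPM, the counts scaled to a common library size with TMM factors, and differences as log2 fold changes with their standard error (SE) from edgeR's quasi-likelihood test. A gene is called higher or lower when its Benjamini-Hochberg adjusted p-value over the 11314 genes is under 0.05. The labels do not say whether the 4 samples of a group came from separate cultures or animals, so the p-values measure only the spread between these samples, which may be technical. In bulk RNA, fewer cells of a type and less RNA per cell cannot be told apart. Of 8 MSC surface genes, Itgb1, Pdgfrb, Pdgfra and Cd44 were abundant, but Nt5e (CD73) reached at most 14 counts and Thy1 (CD90) at most 17 in any sample. The summed level of the 8 was 2210 to 2400 CPM in control and 3120 to 3330 CPM in A1-treated samples. The genes did not move one way: the mean of Itgb1 was 1450 CPM in control and 2220 CPM with A1 and that of Cd44 175 and 458 CPM, while Pdgfra had 247 and 125 CPM and Ly6a 35.1 and 23.3 CPM. Thy1 had means of 0.267 and 0.0542 CPM, but only 1 of the 12 samples held more than 3 counts. Its means therefore give no direction. Markers of leukocytes and macrophages summed to 9.41 to 10.5 CPM in control and 12 to 14.7 CPM in A1-treated samples, mostly Cd14, with Adgre1, Itgam, Fcgr1 and Spi1 at or under 3 counts in every sample. Endothelial genes summed to at most 0.916 CPM and osteoblast genes to at most 2.90 CPM, and the adipocyte genes summed to 61.6 to 77.7 CPM, nearly all Fabp4. Their part in the results was not tested.

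With A1, most of the transport genes that passed the test rose, by modest amounts. Of the 35 members, 18 were higher, 3 were lower and 14 were not called, against 31.7% higher and 31.1% lower of all genes tested (62.7% in either direction). The median log2 fold change was 0.09 over the members and -0.002 over all genes tested, and 0.05 over the 5046 genes at or above the level of the least abundant member, of which 2112 were higher and 1422 lower. The members ranged from -0.70 for Copg2 to 0.49 for Kdelr3, and only Copg2 passed an absolute log2 fold change of 0.5, which 21% of all genes tested did. All 4 A1-treated samples lay above all 4 controls for 13 members and below them for 2, whereas 28% of all genes lay above and 26.4% below. The 35 genes together held 6316 to 6373 CPM in control, 6816 to 6994 CPM in A1-treated and 6597 to 6675 CPM in A1 + OVA-treated samples. These sums depend on the TMM factors. As a share of all counts, without that scaling, the members held 0.6357% to 0.6482% in control and 0.6544% to 0.6671% with A1. With A1 + OVA the share was 0.6403% to 0.6447%, which overlapped the controls.

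**Figure D1:**
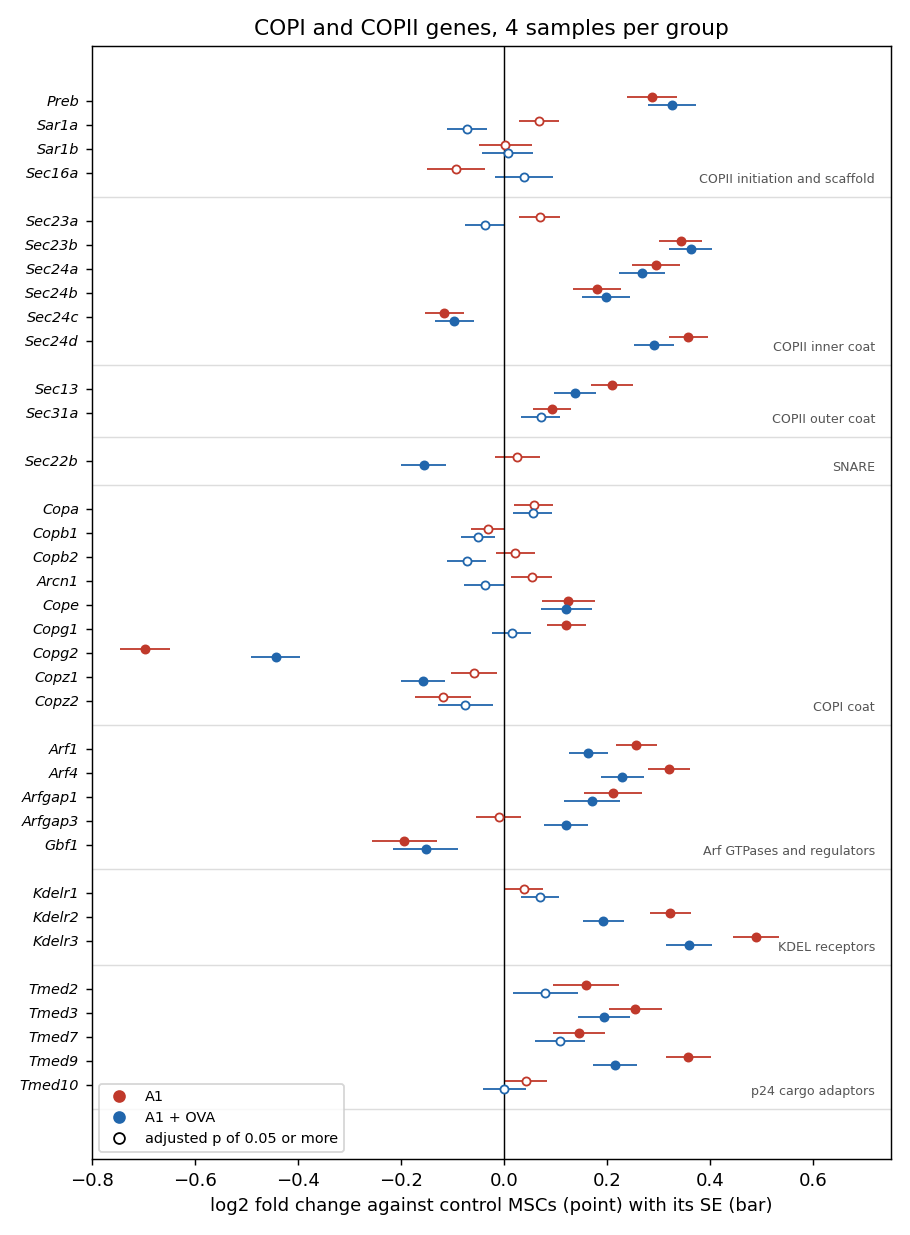
Log2 fold change of each of the 35 genes against control MSCs, with A1 in red and with A1 + OVA in blue, grouped by role. Points are edgeR estimates from 4 samples per group, bars are SE, and open points did not pass an adjusted p of 0.05. Copg2 stands apart on the left at -0.70 with A1, while the genes of the inner coat, the KDEL receptors and the p24 adaptors lie mostly to the right of 0.

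Among the 4 genes that start a COPII coat, Preb was the one called against control with either treatment. Its level was 79.6, 73.0, 84.0 and 77.1 CPM in the control samples, 95.4, 95.8, 92.2 and 99.3 CPM with A1, and 93.9, 95.0, 105 and 99.2 CPM with A1 + OVA. Every treated sample lay above every control sample. The log2 fold change was 0.29 ± 0.048 (SE) with A1 and 0.33 ± 0.047 with A1 + OVA, with adjusted p-values of 2.14e-05 and 4.2e-06 by edgeR's quasi-likelihood test. The GTPases that Preb loads had log2 fold changes with A1 of 0.07 for Sar1a and 0.003 for Sar1b, and the scaffold gene Sec16a one of -0.09, none of which passed the test.

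The inner coat selects cargo. Of its 6 genes, 4 were higher with A1, 1 was lower and 1 was not called, beside 31.7% higher and 31.1% lower of all genes tested. Their summed level went from 700 ± 10.1 CPM (SD, n = 4) in control to 789 ± 16.1 CPM with A1 and 773 ± 10.3 CPM with A1 + OVA. Sec24d, a cargo-binding subunit, read 156, 156, 151 and 167 CPM in control, 203, 202, 203 and 199 CPM with A1, and 197, 195, 197 and 182 CPM with A1 + OVA. The treated samples lay above all controls. The increase with A1 was 28.1%, with a log2 fold change of 0.36 ± 0.038 (SE, adjusted p = 5.45e-08, edgeR). Sec23b, 1 of 2 forms of the subunit that activates the Sar1 GTPase, read 81.1, 80.0, 86.3 and 86.6 CPM in control, 102, 109, 103 and 110 CPM with A1, and 104, 105, 111 and 109 CPM with A1 + OVA. Here too no treated sample overlapped the controls, and the log2 fold change was 0.34 ± 0.042 with A1 and 0.36 ± 0.041 with A1 + OVA (adjusted p = 3.44e-07 and 1.56e-07, edgeR). The other form, Sec23a, was not called, with a log2 fold change of 0.07 with A1 (adjusted p = 0.13, edgeR).

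The 4 Sec24 genes, which differ in the cargo signals that they bind, did not move as a group. Sec24a rose by 22.7% with A1 (log2 fold change 0.30 ± 0.046) and Sec24b by 13.4% (0.18 ± 0.047). Sec24c fell instead. It read 165, 154, 162 and 152 CPM in control, 143, 147, 141 and 152 CPM with A1, and 146, 144, 152 and 150 CPM with A1 + OVA. The highest treated sample and the lowest control came within rounding of each other, and the change was small: the log2 fold change was -0.12 ± 0.038 with A1 and -0.10 ± 0.038 with A1 + OVA (adjusted p = 0.0115 and 0.0362, edgeR). The call with A1 + OVA was lost when A1 + OVA sample 1 or 2 or control sample 1 or 3 was left out, and without the filter on low counts.

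Both genes of the outer coat were higher with A1, as were 31.7% of all genes tested. Sec13, which is also a subunit of the nuclear pore, rose by 15.6% (log2 fold change 0.21 ± 0.041), and Sec31a by 6.64% (0.09 ± 0.037, adjusted p = 0.0346, edgeR). The call of Sec31a was lost without A1 sample 1, 2 or 4 or control sample 1 or 2, with upper-quartile normalization, without the filter on low counts and with all genes of the file.

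Of the 9 genes of the COPI coatomer, 3 were called with A1, beside 62.7% of all genes tested. Cope and Copg1 were higher, Copg2 was lower and 6 were not called, and the summed level was 2221 ± 17.7 CPM (SD, n = 4) in control, 2251 ± 26.8 CPM with A1 and 2177 ± 9.08 CPM with A1 + OVA. The 6 genes not called (Copa, Copb1, Copb2, Arcn1, Copz1 and Copz2, which encode the alpha, beta, beta prime, delta and both zeta subunits) had log2 fold changes between -0.12 and 0.06.

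Copg2, 1 of 2 forms of the gamma subunit, was the member that changed most. It read 77.0, 81.3, 74.2 and 79.2 CPM in control, 47.1, 47.8, 52.6 and 45.1 CPM with A1, and 55.7, 57.3, 56.6 and 59.7 CPM with A1 + OVA. The 3 groups did not overlap, and A1 + OVA lay between the others. It fell by 38.3% with A1, with a log2 fold change of -0.70 ± 0.049 (SE, adjusted p = 6.93e-11, edgeR), and with A1 + OVA the log2 fold change was -0.44 ± 0.048 (adjusted p = 6.92e-08, edgeR). The gene lies on the minus strand at chr6:30747554-30896794 (GRCm38) and overlaps Mest on the other strand. Reads were counted by strand. Mest had 0.878 to 1.36 CPM in control, 0.145 to 0.534 CPM with A1 and 0.123 to 0.443 CPM with A1 + OVA. The other form, Copg1, rose by 8.76% with A1 (log2 fold change 0.12 ± 0.038, adjusted p = 0.00884, edgeR).

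Cope, the epsilon subunit, read 63.6, 53.4, 56.0 and 60.4 CPM in control, 64.8, 64.2, 61.5 and 64.1 CPM with A1, and 61.6, 63.0, 65.1 and 64.2 CPM with A1 + OVA. The control samples were more spread than the treated ones and control sample 1 overlapped them. The log2 fold change was 0.13 ± 0.051 with A1 and 0.12 ± 0.050 with A1 + OVA (adjusted p = 0.0361 and 0.043, edgeR). The first call was lost with DESeq2, with upper-quartile normalization and without A1 sample 1, 2 or 4 or control sample 2 or 3. The second was lost under 14 of 20 alternatives.

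The 5 Arf GTPases and regulators had 3 higher, 1 lower and 1 not called with A1, beside 31.7% higher and 31.1% lower of all genes tested. Both Arf GTPases among the members, of the class that recruits coatomer, rose. Arf4 read 487, 506, 480 and 473 CPM in control, 580, 597, 647 and 606 CPM with A1, and 589, 591, 545 and 558 CPM with A1 + OVA. All treated samples were above all controls, with a log2 fold change of 0.32 ± 0.041 with A1 and 0.23 ± 0.041 with A1 + OVA (adjusted p = 6.08e-07 and 5e-05, edgeR). Arf1 rose by 19.5% with A1 (0.26 ± 0.039) and Arfgap1, which switches Arf1 off, by 15.8% (0.21 ± 0.056). Gbf1, the exchange factor that switches Arf1 on at the early Golgi, was lower. It read 119, 124, 137 and 138 CPM in control, 110, 123, 98.0 and 121 CPM with A1, and 115, 108, 119 and 124 CPM with A1 + OVA. The groups overlapped, the log2 fold change was -0.19 ± 0.063 with A1 and -0.15 ± 0.063 with A1 + OVA (adjusted p = 0.0115 and 0.0423, edgeR), and the call with A1 was lost without A1 sample 3. That with A1 + OVA was lost without A1 + OVA sample 1, 2 or 3 or control sample 3 or 4.

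The KDEL receptors, which return ER chaperones from the Golgi, included the largest increase of the 35 genes. Kdelr3 read 84.1, 73.3, 75.3 and 79.4 CPM in control, 111, 104, 114 and 109 CPM with A1, and 101, 102, 96.7 and 101 CPM with A1 + OVA. The treated samples stood clear of the controls and the A1 + OVA samples lay below the A1 samples. The increase with A1 was 40.4%, with a log2 fold change of 0.49 ± 0.044 (SE, adjusted p = 3.89e-09, edgeR). Kdelr2 rose by 25.1% (0.32 ± 0.040), and Kdelr1 was not called (0.04 ± 0.037, adjusted p = 0.376, edgeR).

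The 5 p24 genes among the members had positive log2 fold changes with A1 and 4 were called, beside 31.7% called higher of all genes tested. Of the 4 other p24 genes tested, Tmed5 rose (0.36 ± 0.059), Tmed4 (-0.26 ± 0.062) and Tmed8 (-0.22 ± 0.081) fell, and Tmed1 was not called (-0.09 ± 0.084). Tmed9 rose by 28.2%, Tmed3 by 19.3%, Tmed2 by 11.6% and Tmed7 by 10.7%, and Tmed10 was not called (0.04 ± 0.041). The call of Tmed2 was lost without A1 sample 2, 3 or 4 or control sample 1, 3 or 4 and with upper-quartile normalization, and that of Tmed7 without A1 sample 3. Among the A1 + OVA samples, samples 1 and 2 lay above samples 3 and 4 for Tmed2 (49.0 and 47.4 against 41.1 and 40.5 CPM) and for Tmed7 (319 and 313 against 279 and 282 CPM). This split was not particular to the p24 genes. Arcn1 had it too (413 and 410 against 378 and 372 CPM), and Arfgap1 had it reversed (70.4 and 76.9 against 88.3 and 85.6 CPM). Across tested genes, samples 1 and 2 differed by 2.4 times the variance expected from counting, and samples 3 and 4 by 2.54 times. Between these pairs it was 4.94 to 5.74 times. The cause was not tested.

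**Figure D2:**
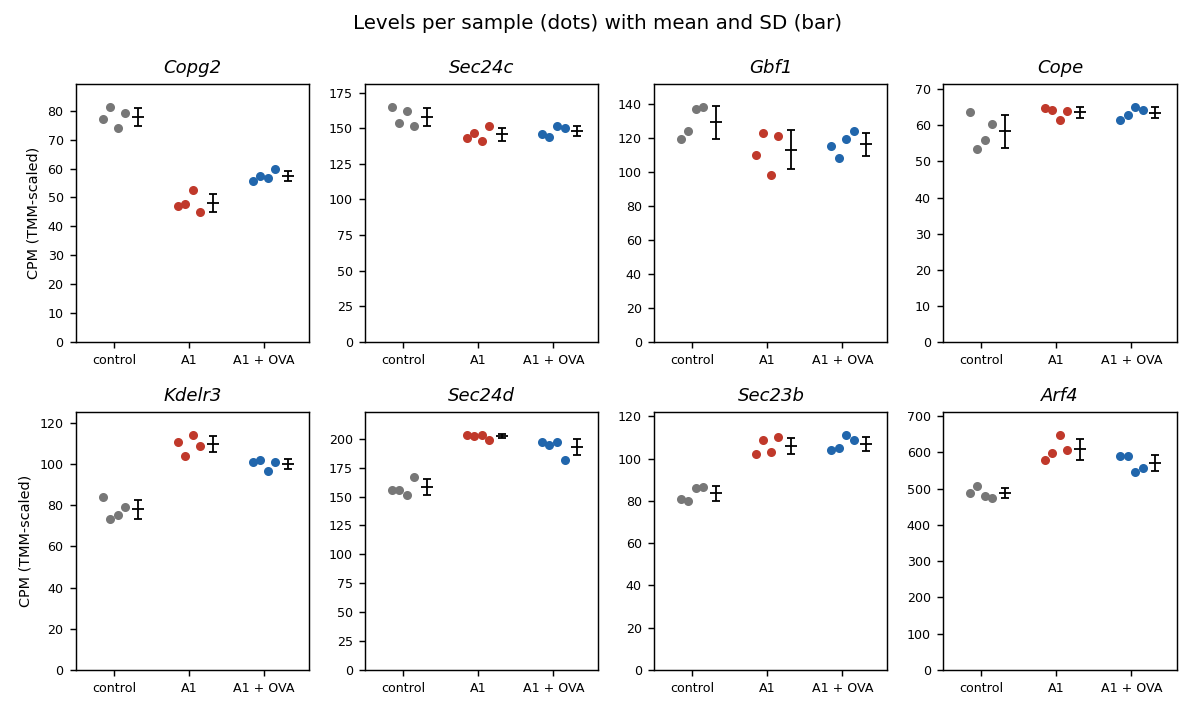
Level in CPM of 8 genes in each sample, with dots for samples and a black bar for the mean and SD of 4 samples. Copg2 falls from 74.2 to 81.3 CPM in control to 45.1 to 52.6 CPM with A1, the lower row shows 4 genes whose treated samples lie above every control, and the groups of Gbf1 and Cope overlap.

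Where a protein has several forms, the share that each form takes of its family within a sample does not depend on the scaling between samples. Shares were computed from counts per kilobase of exon and compared by a two-sided exact permutation test, for which the smallest p with 4 against 4 samples is 0.0286. The exon length counts every annotated exon, for example 11011 bases for Copg1 and 5121 for Copg2. The size of a share therefore depends on the annotation, and a form with long unused exons is understated. Copg2 took 35.3% ± 1.36 (SD, n = 4) of the gamma subunit transcripts in control, 23.6% ± 0.984 with A1 and 28.4% ± 0.796 with A1 + OVA. Sec23b took 31.5% ± 1.22 of Sec23 in control, 35.8% ± 1.23 with A1 and 37.8% ± 1.02 with A1 + OVA. Within the Sec24 family, Sec24c went from 35.2% ± 1.35 in control to 29% ± 0.408 with A1, and Sec24d from 34.9% ± 1.43 to 39.9% ± 1.12. Kdelr1 went from 28.1% ± 0.261 of the KDEL receptors to 23.5% ± 0.207, and Kdelr3 from 25.4% ± 1.20 to 29% ± 0.656. In each of these comparisons of A1 with control the groups did not overlap and the exact p was 0.0286. Over all 33 comparisons of shares, 16 reached that p, but after Benjamini-Hochberg adjustment 0 passed 0.05, the smallest adjusted p being 0.0589. As no share can go below 0.0286, the smallest adjusted p depends only on how many shares reach it. The 0 calls therefore cannot decide about any single share, however large its difference.

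**Figure D3:**
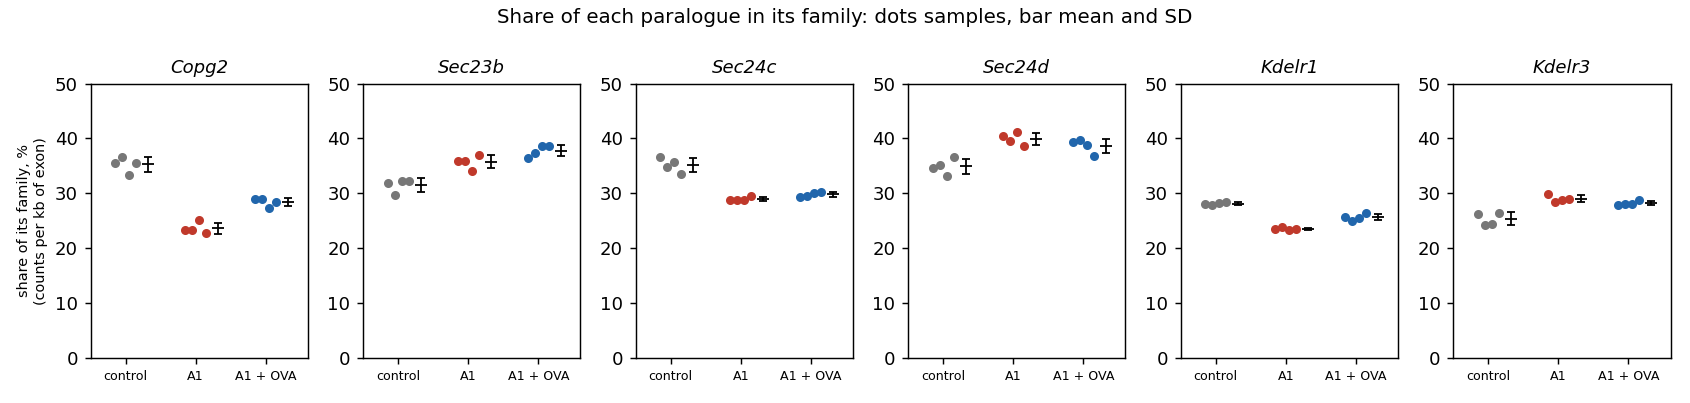
Share in percent that 6 genes take of their family in each sample, from counts per kilobase of exon. Dots are samples and bars the mean and SD of 4 samples. The share of Copg2 goes from 35.3% in control to 23.6% with A1 and 28.4% with A1 + OVA and that of Sec24c from 35.2% to 29% with A1, without overlap between control and A1.

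The promoters of the members were searched for 3 motifs of the UPR and of CREB-type factors, in the RefSeq sequence (GRCm38.p6) from 250 bases before to 50 bases after each annotated start, on both strands. The motifs were picked after the expression values were known. Promoters of 31 of the 35 genes were searched. No entry was found for Arcn1, Tmed2 and Kdelr2. Tmed7 was not searched, because the chromosome that carries it was left out. The counts of all genes and of tested genes with a promoter lack that chromosome too. The UPR element TGACGTGG, known to be bound by XBP1 and ATF6, was in the promoters of 7 members (22.6%), compared with 0.714% of 27025 genes with a promoter and 1.04% of the 8954 among them that were tested. The CRE TGACGTCA, which shares its first letters with the UPR element, was in 1 member, Cope (3.23%), compared with 2.03% of all genes and 3.69% of those tested, and the ER stress element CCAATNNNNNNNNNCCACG was in 0 members and 0.137% of all genes. The 7 windows of 30 bases around the UPR element are shown because this motif was the commonest of the 3 among the members. They are written on the strand of the gene, with the element or its reverse complement in capitals.
Sec24d, chr3:123267459-123267488, plus strand: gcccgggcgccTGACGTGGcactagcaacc
Copb1, chr7:114254690-114254719, minus strand: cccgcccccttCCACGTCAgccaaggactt
Copb2, chr9:98563713-98563742, plus strand: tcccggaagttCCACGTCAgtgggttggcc
Arf1, chr11:59228228-59228257, minus strand: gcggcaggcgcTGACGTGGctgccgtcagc
Sec23a, chr12:59011993-59012022, minus strand: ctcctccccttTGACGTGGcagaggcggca
Kdelr3, chr15:79516367-79516396, plus strand: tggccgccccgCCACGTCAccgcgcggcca
Gbf1, chr19:46152535-46152564, plus strand: gaggctagttaCCACGTCAgtgagctgaca

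In all 7 genes the element lay within 50 bases of an annotated start, as it did in 45 of the 93 tested genes that hold it (48.4%). The genes with the element did not share a direction. With A1, Arf1, Kdelr3 and Sec24d were higher, Gbf1 was lower, and Copb1, Copb2 and Sec23a were not called. Their median log2 fold change with A1 was 0.07, and that of the 24 members without it was 0.08. A match is only a description of the letters, and binding was not measured.

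With A1 + OVA against control, 15 members were higher, 5 were lower and 15 were not called, against 29.7% higher and 27.9% lower of all genes tested (57.6% in either direction). The comparison shares its control samples with that of A1. The median log2 fold change was 0.07 over the members and 0.004 over all genes. It was 0.031 over the 5046 genes at or above the level of the least abundant member, of which 1862 were higher and 1410 lower. The treated samples lay above all controls for 12 members and below them for 5, with 25.4% and 24% of all genes doing so. Those below were Copg2, Sec24c, Sec22b, Sar1a and Copb1, of which Sar1a and Copb1 were not called. The largest increases were those of Sec23b (0.36), Kdelr3 (0.36) and Preb (0.33). The 5 genes called lower were Copg2, Sec24c and Gbf1, described above, and Sec22b and Copz1. Copz1, a zeta subunit of coatomer, fell by 10.3% (-0.16 ± 0.043, adjusted p = 0.00389, edgeR), and its treated samples overlapped the controls. Arfgap3, an Arf GTPase-activating protein of the Golgi, was called with A1 + OVA (0.12 ± 0.043, adjusted p = 0.0214, edgeR), and its log2 fold change with A1 was -0.01. That call was lost without A1 + OVA sample 2 or control sample 2 or 4, and with upper-quartile normalization.

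The direct comparison of A1 + OVA with A1 called 5 of the 35 members, 1 higher and 4 lower, against 12.9% of all genes tested, 6.05% higher and 6.81% lower. The median log2 fold change was -0.04 over the members and 0.006 over all genes. It was -0.019 over the 5046 genes at or above the level of the least abundant member, of which 333 were higher and 560 lower. Genes at the level of the members thus also leaned lower in this comparison. The A1 + OVA samples lay above all A1 samples for 2 members and below them for 11, with 8.56% and 9.58% of all genes doing so. The gene that was higher was Copg2, by 19.2% (log2 fold change 0.25 ± 0.051, adjusted p = 0.0022, edgeR).

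The 4 lower genes belong to different steps. Sec22b, a SNARE that acts in transport between the ER and the Golgi and is known from antigen cross-presentation in dendritic cells, read 87.6, 79.1, 79.9 and 80.8 CPM in control, 83.7, 82.8, 87.0 and 79.9 CPM with A1, and 76.4, 73.0, 72.9 and 71.7 CPM with A1 + OVA. All A1 + OVA samples lay below every other sample. The log2 fold change was -0.18 ± 0.044 against A1 and -0.16 ± 0.043 against control (adjusted p = 0.00843 and 0.004, edgeR), whereas with A1 alone it was 0.03 ± 0.043 (adjusted p = 0.616, edgeR). Sar1a read 380, 364, 363 and 360 CPM in control, 394, 363, 403 and 377 CPM with A1, and 359, 357, 342 and 340 CPM with A1 + OVA. The A1 + OVA samples were again the lowest 4, with a log2 fold change against A1 of -0.14 ± 0.039 (adjusted p = 0.0214, edgeR), and the call was lost without A1 sample 1 or 3 or A1 + OVA sample 3 or 4.

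Kdelr2 read 189, 188, 190 and 176 CPM in control, 224, 228, 246 and 231 CPM with A1, and 218, 221, 207 and 204 CPM with A1 + OVA. The A1 + OVA samples lay between the other groups without overlap, with a log2 fold change against A1 of -0.13 ± 0.040 (adjusted p = 0.0367, edgeR), lost without A1 sample 2, 3 or 4 or A1 + OVA sample 3 or 4. Tmed9 read 116, 101, 110 and 105 CPM in control, 144, 137, 139 and 133 CPM with A1, and 122, 126, 128 and 125 CPM with A1 + OVA. It had the same order without overlap, with a log2 fold change against A1 of -0.14 ± 0.042 (adjusted p = 0.0297, edgeR), lost without A1 sample 1, 2 or 3 or A1 + OVA sample 1, 2 or 4.

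**Figure D4:**
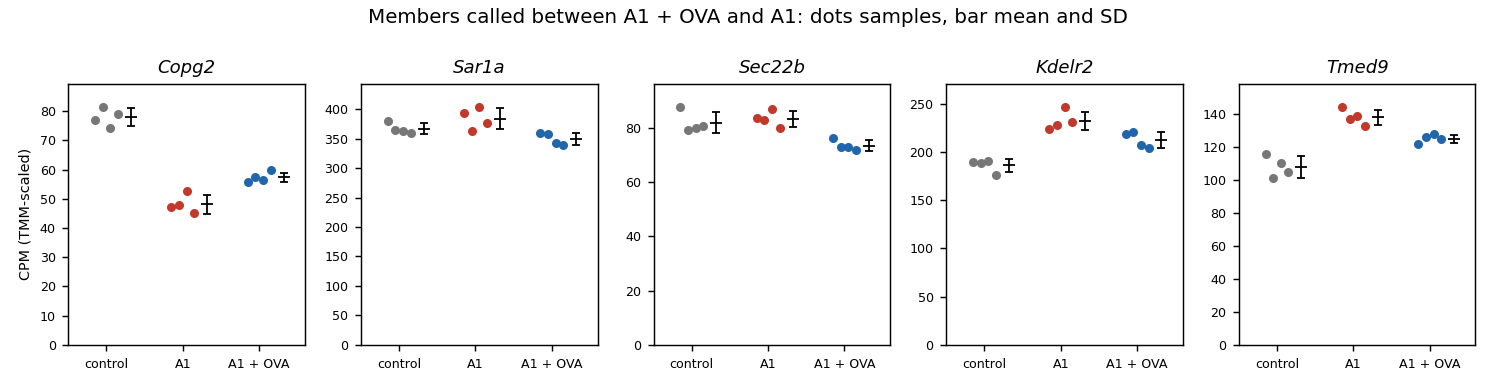
Level in CPM of the 5 genes called between A1 + OVA and A1, in each sample. Dots are samples and bars the mean and SD of 4 samples. Copg2, Kdelr2 and Tmed9 with A1 + OVA lie between control and A1, and the 4 A1 + OVA samples are the lowest of all for Sar1a and Sec22b.

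Levels between genes were compared per kilobase of exon. In control MSCs, Arf1 (172 CPM per kb) and Arf4 (135) were the most abundant members, followed by Kdelr2 (101) and Sar1a (98.1). The coatomer genes ranged from 15.2 CPM per kb for Copg2 to 57.9 for Copa, and Sec24a was lowest of the 35 at 6.99. This exon length counts every annotated exon, so genes with long unused exons are understated.

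Other genes of the secretory pathway were counted by step, beside 31.7% higher and 31.1% lower of all genes tested with A1. Of 23 genes of protein import into the ER, 16 were higher and 1 lower with A1, led by the signal peptidase subunit Spcs3 (0.84 ± 0.044) and the translocon subunit Sec61a1 (0.68 ± 0.037). Of 20 cargo receptors and exit-site genes, 10 were higher and 2 lower, with Mcfd2, the partner of the cargo receptor Lman1, at 0.55 ± 0.047 and Sec16b, a relative of Sec16a, at -0.33 ± 0.094. Of 28 tethers and SNAREs between the ER and the Golgi, 9 were higher and 9 lower. Scfd2 had the largest change of these (0.60 ± 0.078). Within the conserved oligomeric Golgi complex Cog4 (-0.55 ± 0.052), Cog6 (-0.40 ± 0.061), Cog2 (-0.38 ± 0.061), Cog7 (-0.27 ± 0.083) and Cog5 (-0.19 ± 0.059) fell. Cog3 rose (0.26 ± 0.042), and Cog1 and Cog8 were not called. Of 9 tested paralogues of the members 4 were higher and 3 lower, the higher ones being Tmed5, Arf3 (0.31 ± 0.039), Arf2 (0.30 ± 0.055) and Arf5 (0.17 ± 0.064) and the lower ones Tmed4, Tmed8 and Arfgap2 (-0.11 ± 0.046). With A1 + OVA, the counts of higher and lower genes were 15 and 1 for import, 10 and 1 for cargo receptors and exit-site genes, 7 and 8 for tethers and SNAREs, and 2 and 0 for the paralogues. Of 3 tested CREB3 family genes, Creb3l1 (0.61 ± 0.043) and Creb3 (0.20 ± 0.057) were higher and Creb3l2 was not called (0.03 ± 0.047).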

How the data were processed

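MSCs of 3 groups of 4 samples were assigned by sample title. The authors prepared poly(A)-selected strand-specific libraries, and per the labels used bcl2fastq 2.20, STAR 2.7, GRCm38 and featureCounts 2.0. The deposited values are raw counts per gene, without normalization. Gene symbols and biotypes came from GENCODE M21 (GRCm38), which holds 99.53% of the identifiers.

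Protein-coding genes kept by filterByExpr were scaled by TMM and tested with edgeR 4.0.16 (R 4.3.3, glmQLFit and glmQLFTest) in one fit of 12 samples with group as the only term. P-values were adjusted by Benjamini-Hochberg over 11314 genes. The SE is the absolute log2 fold change divided by the square root of F. All 35 members are named. Every sample's value is given for those called between the treatments and for Preb, Sec24d, Sec23b, Sec24c, Cope, Arf4, Gbf1 and Kdelr3. The others, among them Copz1 and Sec31a, have summaries or part of the samples only. The members, the gene lists and the promoter motifs were chosen with earlier results of these data known. DESeq2 1.42.0, the authors' own tool, was an alternative, with other scalings, filters, a replicate block and each sample left out. The fits were run on simulated counts. They did not meet the first pass criteria, which were changed after the results were seen. The missed genes were weakly powered, and the last criterion was set from the power that the simulation implies. Differences between replicates had 1.92 to 6.82 times the variance expected from counting, so none is a copy of another. Index numbers in the column headers follow the groups, and no preparation batch is named.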

Additional observations from a re-analysis of the deposited data

Results flagged for a closer look

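Each group of 4 samples was searched for a sample that stood apart from the other 3, by the gap to its nearest neighbour over the range of the group. Among 105 groups of member levels and 33 groups of shares, 7 were picked, and chance picks about 1 in 20. The gap was 0.831 of the range for Sec24a in control sample 1 (69.6 against 75.9 to 77.1 CPM), 0.884 for Arfgap1 in control sample 4 (73.4 against 70.6 to 70.9 CPM), 0.863 for Kdelr2 in control sample 4 (176 against 188 to 190 CPM) and 0.935 for Tmed7 in control sample 2 (297 against 269 to 270 CPM). It was 0.865 for Sec24d in A1 + OVA sample 4 (182 against 195 to 197 CPM). For the shares it was 0.875 for Sec23b in control sample 2 (29.7% against 32% to 32.3%) and 0.918 for Sec24c in A1 sample 4 (29.6% against 28.7% to 28.8%).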

How the results depend on the processing

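The counts of members called stayed within 1.5 times for most alternatives. A minimum log2 fold change of 0.5 in either direction left 1 member with A1 (0 higher, 1 lower), 0 with A1 + OVA (0 higher, 0 lower) and 0 between the treatments (0 higher, 0 lower). Between the treatments, upper-quartile normalization and at least 10 counts in every sample gave 2 higher members. Leaving out each sample in turn gave 18 to 21 members called with A1 (15 to 18 higher, 2 to 4 lower), 16 to 20 with A1 + OVA (13 to 15 higher, 3 to 5 lower) and 2 to 7 between the treatments (1 to 2 higher, 1 to 5 lower). The 3 lower members with A1 + OVA came without A1 + OVA sample 1 or 2 or control sample 3. The 2 members between the treatments came without A1 sample 3 or A1 + OVA sample 4, and 3 came without A1 sample 1 or A1 + OVA sample 3. Without A1 + OVA sample 1 or control sample 2, 2 members were higher there.

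Under the 20 alternatives other than the fold change threshold, 16 of the 21 calls with A1, 15 of the 20 with A1 + OVA and 2 of the 5 between the treatments were kept in all. Calls lost under single settings stand beside the genes, except Arfgap1 with A1 + OVA, lost without A1 + OVA sample 3, and the cause was not tested. Calls were gained with A1 for Sar1a without A1 sample 2, Sec16a without control sample 1 and Copz2 without A1 sample 1 or control sample 3, with A1 + OVA for Tmed7 without A1 + OVA sample 3 or 4 or control sample 2, and between the treatments for Arfgap3 without A1 + OVA sample 1 or control sample 2 and Kdelr3 without A1 sample 2 or control sample 1 or 2. Processing choices also added calls: upper-quartile normalization Copz2 with A1, Sar1a and Copb2 with A1 + OVA and Arfgap3 between the treatments, all genes of the file Copz2 with A1, and, between the treatments, at least 10 counts Arfgap3, DESeq2 Copg1, and its size factors or only the groups compared Kdelr3.

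The values that changed sign were all near 0 and not called. Against control with A1, Sar1b was -0.0267 with upper-quartile normalization, -0.000461 without a filter, -0.00217 with at least 10 counts and -0.00475 with all genes of the file, and upper-quartile normalization gave -0.00299 for Sec22b and -0.00725 for Copb2. With A1 + OVA, upper-quartile normalization gave -0.016 for Sar1b, -0.00712 for Copg1 and -0.0222 for Tmed10, all genes of the file gave -0.00505 for Sar1b and -0.0113 for Tmed10, and only the groups compared gave -7.58e-05 and -0.0061. Tmed10 was -0.00599 with DESeq2, -0.00594 with its size factors, -0.00494 without a filter and -0.00351 with at least 10 counts. Between the treatments Sar1b was -0.000408 with DESeq2 and with its size factors and -0.000299 with all genes, and upper-quartile normalization gave 0.00476 for Copa and 0.00289 for Cope.

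With single samples left out, the ranges that crossed 0 were, with A1, -0.0347 to 0.0348 for Sar1b, -0.00122 to 0.0609 for Sec22b, -0.00327 to 0.0489 for Copb2 and -0.0363 to 0.0119 for Arfgap3. With A1 + OVA they were -0.0208 to 0.0391 for Sar1b, -0.00316 to 0.0801 for Sec16a, -0.00497 to 0.0422 for Copg1 and -0.0173 to 0.0264 for Tmed10. Between the treatments they were -0.0244 to 0.032 for Sar1b, -0.00218 to 0.0332 for Sec23b, -0.0578 to 0.00175 for Sec24a, -0.017 to 0.04 for Sec24b, -0.0268 to 0.0155 for Copa, -0.0233 to 0.00944 for Cope, -0.0875 to 0.0161 for Arfgap1 and -0.0258 to 0.0828 for Gbf1.

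Whether equal replicate numbers share a culture is not given by the labels. Same-numbered samples of different groups had a mean correlation of deviations of 0.021 over 12 pairs, 2 of them over 0.1. Differently numbered ones had a mean of -0.007 over 36 pairs, 6 of them over 0.1. Of the 12 samples, 5 correlated best with their own number, which does not settle whether samples were paired. With the replicate number as a block, 22 members were called with A1 (18 higher, 4 lower, Copz2 being added), 20 with A1 + OVA and 5 between the treatments. The shares gave 0 calls after adjustment from raw counts (15 at an unadjusted p under 0.05) and from log2 ratios (16), under the same floor on p.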
